A study of Mus musculus with 4 samples.

Results

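The ARID1A peaks described here lie in 3 windows of mouse chromosome 10 that were set around Elk3, Phlda1 and Dusp6, genes of the transcriptional response to ERK signalling. In build mm9, the Elk3 window runs from 92.65 to 92.85 Mb, the Phlda1 window from 110.8 to 111.06 Mb and the Dusp6 window from 98.58 to 98.87 Mb. Every peak that overlapped a window was taken as a member, which gave 30 of the 11220 peaks in the 4 deposited lists. Control replicate 1 held 13 of them, control replicate 2 held 17, and EGF replicates 1 and 2 held 0 each. The Elk3 and Phlda1 windows were chosen by their groups of peaks present in both control lists. The number of control peaks there is therefore a description and was not tested.

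The cells were 266-6, an established mouse pancreatic acinar cell line grown in 10% serum. All were starved of serum overnight, for about 14 h. The EGF group then received 40 ng/ml epidermal growth factor for 8 h and the control group 0.1% bovine serum albumin, with 2 ChIP-seq libraries per group. The labels do not say whether replicate libraries stem from separate cultures, so the spread between replicates may be technical. The peak lists hold no expression values against which the labelled cell type could be checked.

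ARID1A is a DNA-binding subunit of the BAF form of the SWI/SNF complexes, which use ATP to move or evict nucleosomes. EGF binds its receptor at the cell surface and signals through RAS, RAF and MEK to the kinase ERK, which enters the nucleus and phosphorylates transcription factors. Elk3, also known as Net, encodes one of these factors, an ETS-domain partner of serum response factor that represses its targets until ERK phosphorylates it. Dusp6 encodes a phosphatase that removes phosphate from ERK and so limits the pathway that induces it. Phlda1 encodes a protein with a pleckstrin homology-like domain whose transcript is used as a readout of ERK activity.

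No gene was assigned to a peak, because the gene annotation used here is of another build, GRCm38.p6. Whether a peak lies in a promoter, an exon or an intron is therefore not stated. That annotation served only for gene order: the nearest protein-coding genes by start position are Cdk17 and Lta4h for Elk3, Nap1l1 and Krr1 for Phlda1, and Galnt4 and Csl for Dusp6. A peak in a window may belong to such a neighbour.

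Promoter sequence was at hand for 2 of the 3 genes, Elk3 and Dusp6, and is shown with matches to an ETS core marked. Each line holds the 250 bases before the RefSeq start of the gene in GRCm38.p6, 5′ to 3′ on the gene's strand. Positions were not converted between that build and mm9, so they cannot be set against the positions of the peaks. The Elk3 stretch is chr10:93311160-93311409 on the minus strand and the Dusp6 stretch is chr10:99262981-99263230 on the plus strand. Capitals mark GGAA, the core that ETS proteins recognise, and its reverse complement TTCC.
Elk3: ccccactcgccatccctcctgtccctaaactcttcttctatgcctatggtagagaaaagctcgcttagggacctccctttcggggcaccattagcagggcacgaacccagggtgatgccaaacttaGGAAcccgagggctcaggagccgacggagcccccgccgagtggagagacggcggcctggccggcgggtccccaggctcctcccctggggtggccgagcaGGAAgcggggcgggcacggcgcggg
Dusp6: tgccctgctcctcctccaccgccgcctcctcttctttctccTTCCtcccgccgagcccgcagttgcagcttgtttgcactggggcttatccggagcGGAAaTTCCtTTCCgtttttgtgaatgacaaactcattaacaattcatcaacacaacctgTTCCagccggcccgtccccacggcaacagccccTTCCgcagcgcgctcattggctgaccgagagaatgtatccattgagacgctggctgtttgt

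The Dusp6 stretch held 6 such matches, 1 as GGAA and 5 as TTCC, and the Elk3 stretch held 2, both as GGAA. At least 1 match was present in 93.4% of the 32851 promoter stretches of that length in the table, at least 2 in 76.8% and at least 6 in 8.69%. The AP-1 motif TGANTCA, searched on both strands, had 0 matches in either stretch, against a match in 6.75% of all stretches. Matches are letters in the sequence and not measured sites. Whether a peak covers either promoter was not determined, since the builds were not converted.

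Each peak has a fold, which the authors' peak caller gave as scaled ChIP reads over local input at the summit, each with 1 added. Whole ChIP reads at the summit were recovered from the fold and the −log10 p of every peak. They are given as multiples of the library's genome-wide mean, which was 1.18 reads per 200 bp in control replicate 1, 1.14 in control replicate 2, 1.06 in EGF replicate 1 and 1.23 in EGF replicate 2. The member peaks rest on 13 to 29 reads. The exact Poisson 95% interval is 6.92 to 22.2 for 13 reads and 19.4 to 41.6 for 29, and covers counting error only.

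In the Elk3 window, control cells had 5 ARID1A peaks in replicate 1 and 7 in replicate 2, which joined into 6 regions where peaks overlapped by at least 1 bp. Of these regions, 4 were present in both control lists, 1 in replicate 1 alone and 1 in replicate 2 alone. The first 3 shared regions lay within 7.39 kb of each other and held 5 of the replicate 2 peaks, and the 6 regions spanned 56.5 kb.

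The first Elk3 region, chr10:92732210-92732537, had 26 reads at the summit in control replicate 1 and 19 in replicate 2, or 22.0 and 16.7 times the genome mean. Its fold was 4.48 and 5.39, so the replicate with more reads had the lower fold. The local input at the summit was 3.89 times the genome-wide background in replicate 1 and 2.05 times in replicate 2, which sets the fold apart from the reads. The next region, chr10:92738017-92738631, lay 5479 bp further on and had 1 peak in replicate 1, with 20 reads, and 2 in replicate 2. The replicate 2 peak with more reads, 21, had its summit 480 bp from that of replicate 1. The other, at chr10:92738350-92738631 with 17 reads, had its summit within 100 bp of it.

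The third shared Elk3 region, chr10:92738772-92739597, began 140 bp after the second and held the member peak with the most reads. That peak, chr10:92739204-92739597 in control replicate 2, had 29 reads, a fold of 8.63 and a score at percentile 93.2 of its list. In replicate 1 the region had 1 peak with 18 reads and a fold of 5.95, its summit 366 bp away. By the peak with the most reads in each library, the level of the region was 20.4 ± 7.32 times the genome mean (SD, n = 2). The other replicate 2 peak there, chr10:92738772-92739032, had its summit nearer to that of replicate 1. It had 20 reads and a fold of 6.76, or 17.6 times the mean, against 15.2 times in replicate 1. The fourth shared region, chr10:92773123-92774073, was the widest of the windows at 951 bp and was likewise higher in replicate 2, with 23 reads and a fold of 8.32 against 14 reads and 5.44. By the peak with the most reads in each library, these regions differed most between the replicates. The log2 ratios of replicate 2 to replicate 1 were 0.75 and 0.78. The first of these ratios compares summits 366 bp apart and not the nearer pair.

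The remaining Elk3 regions were each seen in 1 library. The peak at chr10:92751160-92751429 was called in control replicate 1 with 20 reads and a fold of 5.99. The peak at chr10:92788485-92788709 was called in control replicate 2 with 18 reads and a fold of 6.30. In replicate 1 the 20 reads were no fewer than those of several shared regions. In replicate 2 the 18 reads were fewer than at each shared Elk3 region by its highest peak, with 19, 21, 29 and 23 reads. They were more than the 15 and 16 reads of the lowest shared Phlda1 regions in that library.

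**Figure D1:**
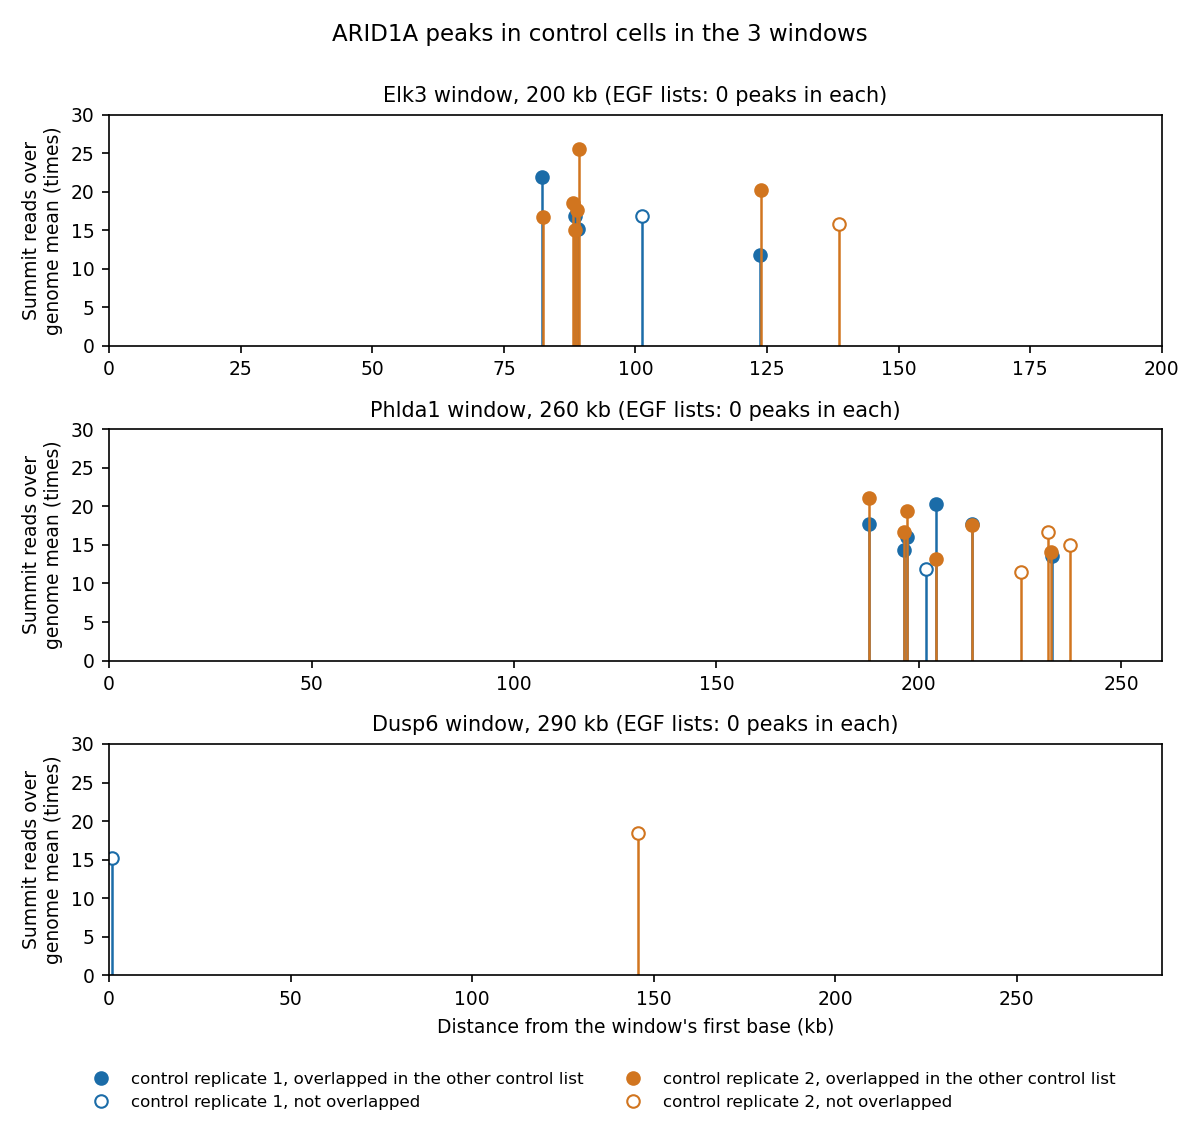
Position and height of every member peak. The horizontal axis is the distance of the peak summit from the first base of the window in kb, the vertical axis the summit reads as a multiple of the library's genome-wide mean, blue control replicate 1 and orange control replicate 2, with filled points for peaks overlapped in the other control list. Peaks gather in 56.5 kb of the Elk3 window and 50.1 kb of the Phlda1 window, and the Dusp6 window has 1 peak per control list.

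In the Phlda1 window, control cells had 7 peaks in replicate 1 and 9 in replicate 2, which joined into 10 regions. Of these, 6 were present in both control lists, 1 in replicate 1 alone and 3 in replicate 2 alone. All 10 lay in the last part of the window, beginning 187 kb from its start and spanning 50.1 kb. The first 5 shared regions spanned 26.1 kb.

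The first Phlda1 region, chr10:110987267-110987710, was the strongest there by score in both libraries. It had 21 reads in control replicate 1 and 24 in replicate 2, with folds of 7.13 and 8.40 and summits 11 bp apart. Its scores stood at percentiles 74.5 and 90.4 of the lists. Its level was 19.4 ± 2.41 times the genome mean (SD, n = 2), and both libraries placed it at about the same height. A pair of regions followed, 213 bp apart: chr10:110996097-110996654 with 17 and 19 reads, and chr10:110996868-110997276 with 19 and 22 reads. Replicate 2 was higher in all 3 of these regions, by 0.22 to 0.27 on the log2 scale. It was also higher at 63.5% of the 2808 shared regions of the genome, and at 7 of the 10 in the windows.

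Further along the Phlda1 window replicate 2 was not higher at every shared region. Region chr10:111004139-111004449 had 24 reads in control replicate 1 and 15 in replicate 2, with folds of 5.54 and 3.998 and a log2 ratio of −0.62. Its replicate 2 peak had the lowest score of the members, at percentile 5.54 of its list. Region chr10:111013053-111013408 had 21 and 20 reads, with folds of 6.12 and 4.86. Its level of 17.7 ± 0.0785 times the genome mean (SD, n = 2) was nearly equal in the libraries, and the fold differed with the local input, at 1.81 and 2.59 times the background. Region chr10:111032547-111033015 had 16 reads in each library, with folds of 5.71 and 5.94 and a level of 13.8 ± 0.415 times the genome mean.

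The Phlda1 regions called in 1 library were chr10:111001704-111001903 in control replicate 1, with 14 reads and a fold of 5.06, and 3 in control replicate 2. The latter were chr10:111025241-111025468 with 13 reads, chr10:111031688-111032041 with 19 and chr10:111037198-111037397 with 17. The 13 reads are the fewest of any member peak, at a local input of 1.04 times the background, the lowest of any member.

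The Dusp6 window had 1 peak in each control list and no region in common. The replicate 1 peak, chr10:98580560-98580810, lay 560 bp inside the edge of the window, with 18 reads, 15.2 times the genome mean and a fold of 5.30. The replicate 2 peak, chr10:98725589-98725906, lay 145 kb further on with 21 reads, 18.5 times the genome mean and a fold of 6.36. The peaks had the same local input, 1.81 times the background. The window thus had no ARID1A peak that both control libraries called. The density was 3.45 peaks per Mb in each control list, against 2.80 and 4.63 per Mb over chromosome 10 up to its last control peak in replicates 1 and 2. In the Elk3 window it was 25.0 and 35.0 per Mb, and in the Phlda1 window 26.9 and 34.6, windows that were chosen for their groups of peaks.

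Beyond the windows, the nearest control peak to the Elk3 window was chr10:92619104-92619496 in replicate 1, with 25 reads, and chr10:92619154-92619510 in replicate 2, also with 25, each 30.5 kb before it. On the other side, peaks lay 44.2 kb away in replicate 1 and 43.5 kb in replicate 2, with 18 and 17 reads. Widened by 50 kb at each side, the windows would hold 12 shared replicate 1 peaks rather than 10. These additions are beside the Elk3 window, since the nearest control peaks to the Phlda1 and Dusp6 windows were 102 kb and 148 kb away.

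Of the member peaks, 10 of 13 in control replicate 1 (76.9%) overlapped a peak of the other control list, against 71.3% of all peaks of that list. In control replicate 2 it was 12 of 17 (70.6%), against 40.4%. Counted as joined regions it was 10 of 18 (55.6%), against 34.2% of 8206. Nothing can be read from these shares, since shared peaks chose the windows. By summit, 5 of the 10 shared replicate 1 peaks had a replicate 2 summit within 100 bp.

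The members were of middling strength among control peaks. Their median summit reads were 16.0 and 16.7 times the genome mean in control replicates 1 and 2, against 16.0 and 15.9 for all peaks. Their median fold was 5.71 and 5.94, against 5.84 in each list. By score, 6 of 13 and 8 of 17 stood above the median of their list. The median local input at the members was 1.504 and 1.81 times the background, against 1.56 on chromosome 10 in each list and 1.35 and 1.40 over all peaks. The 10 shared regions had a median level of 17.7 times the genome mean, from 13.8 to 20.4, and the 2808 shared regions of the genome also had 17.7. The replicates differed by a median of 0.26 on the log2 scale at the 10 regions and 0.24 at all shared regions. Differences between neighbouring members are of the size of that spread, so no order among the 10 regions was drawn from their means.

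**Figure D2:**
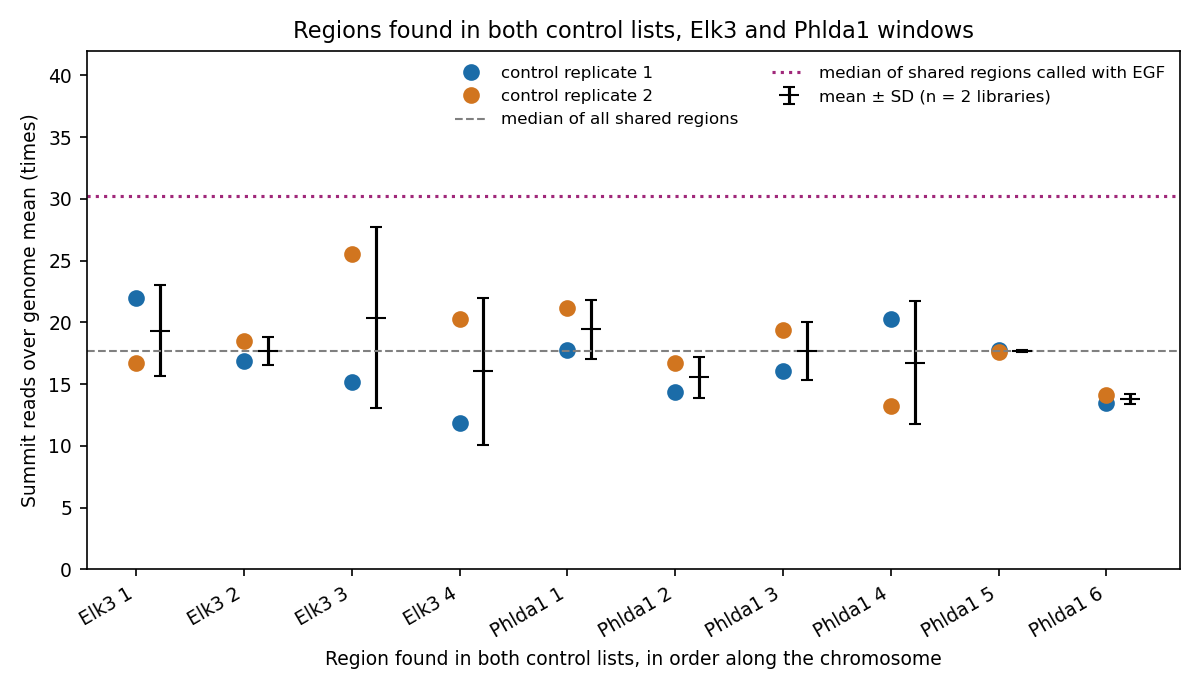
Summit reads as a multiple of the genome-wide mean (vertical axis) at the 10 regions found in both control lists, numbered along the chromosome within each window. Points are the control libraries, black bars the mean ± SD (n = 2), the dashed line the median of all shared regions (17.7) and the dotted line the median of shared regions also called with EGF (30.2); all points lie below the dotted line.

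With EGF, none of these regions was called. Both EGF lists had 0 peaks in the Elk3, Phlda1 and Dusp6 windows, against 13 and 17 in the control lists, and 0 of the 10 shared regions overlapped a peak of either EGF list. A count of 0 among 10 regions allows a share of up to 30% (3 counts of the total) if the regions are independent. They may not be, since neighbours lay as near as 140 bp in the Elk3 window and 213 bp in the Phlda1 window. Over the genome, 59 of 2808 shared regions (2.10%) were called in an EGF list, and that share of 10 regions is 0.210 regions. The absence of all 10 is therefore near the background, and no difference from other control regions can be read from it.

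The EGF lists differed from the control lists in input depth and in the weakest peaks that they hold. Their genome-wide input background was 0.506 reads per 200 bp, found in EGF replicate 1 and taken over for EGF replicate 2. It was 0.771 in both control lists, so the input values of the control replicates may not be independent. The smallest called −log10 p was 7.07 and 8.00 in EGF replicates 1 and 2, against 4.43 and 4.25 in control replicates 1 and 2. The smallest −log10 q was 2.07 and 2.47 with EGF and 1.31 and 1.38 in the control lists. No source used here states a calling cutoff, so the smallest called −log10 p is an upper limit of what a call took. Input depth follows the groups and cannot be told apart from the treatment. Each member was therefore carried over to the EGF lists by keeping its reads and its local input in proportion to the genome-wide values, and its −log10 p was computed again, here named the value at the EGF settings.

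At these settings 7 of the 30 member peaks would reach the smallest called −log10 p of EGF replicate 1, and 3 would reach that of EGF replicate 2, and a lower cutoff could let more pass. In control replicate 1 it was 1 of 13 at the settings of EGF replicate 1 (7.69%), against 33.0% of all peaks of that list, and 0 of 13 at those of EGF replicate 2, against 20.6%. In control replicate 2 it was 6 of 17 (35.3%), against 34.0%, and 3 of 17 (17.6%), against 21.5%. By this reckoning, 23 of the 30 peaks would lie below the weakest peak of each EGF list at the same ARID1A signal. That weakest peak is an outcome of the EGF lists themselves and not a known cutoff. Why the members were not called was not tested. With the genome-wide input of the EGF lists at every peak in place of the local input, 25 and 19 of the 30 would pass in EGF replicates 1 and 2. The local input in EGF cells at uncalled sites is not in the lists, so whether ARID1A occupancy changed at the members was not measured.

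The 3 peaks that would pass in both EGF lists all came from control replicate 2. They were chr10:92739204-92739597 and chr10:92773123-92774073 in the Elk3 window and chr10:110987267-110987710 in the Phlda1 window, with −log10 p of 10.6, 9.88 and 9.61 at the EGF settings. In control replicate 1, 0 peaks of these regions reached 8.00. The first Phlda1 region alone passed at the settings of EGF replicate 1 in both control libraries, with 7.25 in replicate 1. The other 3 that passed there alone, at 7.12, 7.32 and 7.29, were chr10:92788485-92788709, chr10:110996118-110996654 and the replicate 2 peak of the Dusp6 window, all from control replicate 2.

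With the local input carried over, the smallest called −log10 p would be reached at the first Phlda1 region with 17 reads in EGF replicate 1 and 22 in EGF replicate 2, which is 16.0 and 17.8 times the genome mean. Control cells had 17.7 and 21.1 times the mean there. At the Elk3 peak with the most reads these levels are 17.9 and 20.3 times the mean, and the control libraries had 15.2 and 25.5 in that region. The levels are upper limits of what a call took, and they rest on the input that was carried over.

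**Figure D3:**
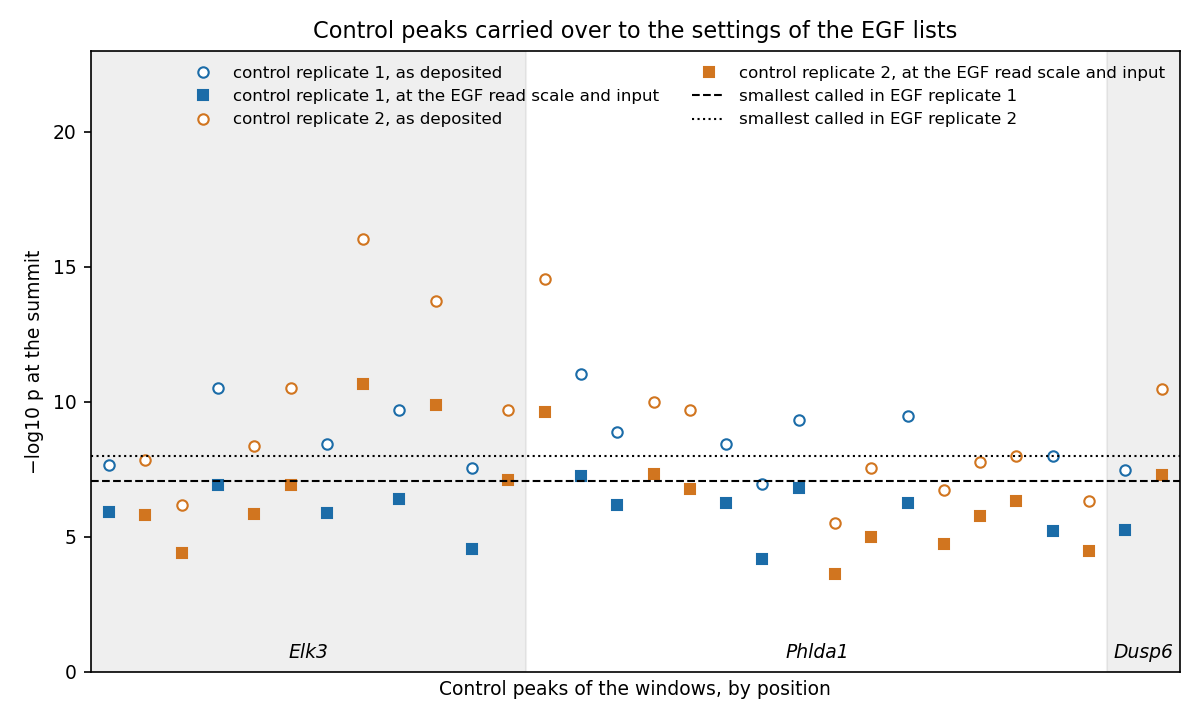
The −log10 p at the summit (vertical axis) of the 30 member peaks, ordered by position within each window. Open circles are the deposited values, filled squares the values at the EGF read scale and input, and the lines the smallest called −log10 p of EGF replicate 1 (7.07, dashed) and EGF replicate 2 (8.00, dotted); 7 squares lie above the dashed line and 3 above the dotted one.

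On the same chromosome, EGF replicate 1 had 7 ARID1A peaks and EGF replicate 2 had 3. Of the 7, all overlapped a peak of control replicate 1, at 11.8 to 32.9 times the genome mean, and 6 overlapped one of control replicate 2, at 29.1 to 46.7 times. In each control library 6 of them were higher than the highest member there. The exception was chr10:26548633-26548838, which had 21 reads in EGF replicate 1 and 14 in control replicate 1, at percentile 37.7 of that list by score, and no peak in control replicate 2. The site at chr10:24792570-24792777 also had a middling score in control replicate 1, at percentile 46.2, with 27 reads over a local input of 3.89 times the background. In control replicate 2 that site stood at percentile 84.9, with 33 reads. The EGF peak nearest to a member was chr10:110485057-110485282 in EGF replicate 1 and chr10:110485094-110485318 in EGF replicate 2, 502 kb from the first Phlda1 region. It had 25 and 32 reads with EGF, or 23.5 and 26.0 times the genome mean, and 31 and 39 reads in control replicates 1 and 2, or 26.2 and 34.4 times. This site was thus higher in both control libraries than any member in either library. The nearest EGF peak to the Dusp6 regions, at chr10:107366836-107367199, was 8.64 Mb away, and the nearest to the Elk3 regions, the same peak, 14.6 Mb.

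Members and sites called with EGF overlapped in their control signal. In control replicate 1, 11 of the 60 peaks that overlapped an EGF peak had no more signal than the highest member, 22.0 times the genome mean, and in control replicate 2 it was 15 of 60 at or below 25.5 times. Conversely, 580 and 510 peaks of control replicates 1 and 2 had at least as much signal as the highest member and overlapped no EGF peak. The highest member of each control list was thus among many control peaks of at least its height that the EGF lists do not hold. The other members were lower.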

How the data were processed

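ARID1A ChIP-seq peak lists of 266-6 cells, 2 control and 2 EGF libraries, were analysed. The submitters' processing notes name deepTools 3.0.2, MACS2 2.1.1.20160309.0, Bowtie2 2.3.4.2 and SAMtools, and the build mm9; options are not stated in the sources used here. For each library the authors deposited a separate peak list with positions, a score (10 times −log10 q, rounded down), a fold, which is the ratio of scaled ChIP reads to local input with 1 added to each, and −log10 p and −log10 q. Positions are printed counted from 1. No comparison was given a statistical test.

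Summit reads and local input were recovered from fold and p as in the Poisson model of MACS2, with 1 read scale per library and input in steps of 0.02 reads per 200 bp. Each of the peaks in all 4 lists had 1 solution, with the largest difference in −log10 p at 3.28e-05. The 20 peaks of EGF replicate 2 did not fix its background, which was taken from EGF replicate 1. The recovery was tested on simulated data with an input background and read scale near those of the control lists. It returned the reads and input of the simulated peaks. The background and read scales of the EGF lists were not simulated. Python 3.11.15, SciPy 1.17.1 and pandas 2.3.3 were used.

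The windows, members and alternatives were chosen with earlier results of these data known. Every peak overlapping a window is named or counted. Other ERK response genes (Dusp, Spry, Spred and Etv genes among them) were not analysed here, since no mm9 annotation was used, and peak sequences were not used. Alternatives were a stricter q of 0.005, windows widened by 50 kb, other overlaps, merging within 500 bp, other scalings and leaving out libraries.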

Additional observations from a re-analysis of the deposited data

How the results depend on the processing

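Of 32 alternative values for 8 results, 26 stayed within the tolerance and 6 moved, where the tolerance is a factor of 1.5 for counts and 1 SD between the control libraries for the signal ratio and the density. For 13 of the 26 no other value could arise, since a stricter q, merging, a stricter overlap or fewer lists cannot raise a count of 0, or since the setting does not touch the value; they say nothing about stability. The count of EGF peaks was also 0 with windows widened by 50 kb, and the count of members called with EGF was 0 there and with peaks within 500 bp counted as shared. The mean of 15 control peaks ran from 12.0 to 17.5. Of the 10 shared replicate 1 peaks, 5 had summits within 100 bp and 8 shared 50% of both peaks. The numbers passing at the EGF settings depend most on the local input. With the genome-wide input at every peak, 25 and 19 of the 30 would pass in EGF replicates 1 and 2 rather than 7 and 3, and a calling cutoff below the smallest called −log10 p would raise each number or leave it. With the larger of both smallest called −log10 p in both lists, 3 would pass in EGF replicate 1. The median summit signal was 1.03 times that of all peaks over the genome mean and 0.969 times over the local input, against an SD of 0.0393. Density was 20.0 peaks per Mb with an SD of 3.77, and 16.0 with peaks within 500 bp merged. No paired analysis was possible because the EGF lists hold no value at the members, so no result comes from a test. Read numbers of 13 to 29 limit each summit, and without reads from the EGF lists at uncalled sites no EGF level can be given.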
